A study of Mus musculus with 8 samples.

Results

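The data described here are the transcripts of the heavy chain variable (V) segments, the Ighv genes, in mouse cells labelled as pro-B cells. Members were the rows on chromosome 12 that the GENCODE annotation names Ighv and classes as IG_V_gene, with 10 or more counts in at least 4 of the 8 libraries. The rule kept 105 of the 113 annotated V genes of the locus, out of 55487 rows in the table. Members were thus chosen by their counts over all libraries, whatever the group, and that they were detected is no finding; 0 members passed through 1 group alone. The libraries were 4 labelled CD25_KO (KO1 to KO4) and 4 labelled WT (WT1 to WT4). Il2ra encodes CD25, a chain of the receptor for interleukin-2, and the comparison asks how CD25-sufficient and CD25-deficient cells differ. Strain, sex, age, tissue, the sort and the nature of the CD25 allele are not given in the sources used here. Nor do the labels tie the samples to animals. P-values therefore reflect only how far these samples spread, and that spread may be partly technical.

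In a developing B cell the heavy chain gene is assembled from V, D and J segments by the RAG recombinase, which first joins D to J and then brings 1 of many V segments to the joined DJ. V segments next to the D segments can be reached over a short distance, whereas those at the far end depend on contraction of the locus, for which Pax5, YY1, CTCF and cohesin are known. IL-7 receptor and STAT5 signalling has been linked to the accessibility of distal V segments. A V segment that has been joined is transcribed at high level from its own promoter together with the constant region, while unjoined segments give weak germline transcripts. Summed exon counts of a V segment hold both kinds, and in a bulk sample fewer cells that use a segment cannot be told apart from less RNA per cell.

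The locus reads on the minus strand, so the lowest coordinates lie next to the D segments. The members ran over 2421.5 kb of mm10, from Ighv5-2 (chr12:113578504-113578990), nearest to the D segments, to Ighv1-85 (chr12:116000028-116000461). The 3 zones were drawn by position. The proximal zone held 17 members of the interleaved Ighv2 and Ighv5 families and ended at start 113879096. The distal zone held 60 members, from Ighv1-4 (start 114487136) outwards, and 28 members of several small families lay between them in the middle zone. Family Ighv1 was the largest with 50 members, followed by Ighv5 and Ighv8 with 9 each, Ighv2 with 8 and Ighv3 with 6.

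The 3' end of a V exon carries the code for the cysteine that starts the third complementarity determining region, and it borders the signal that the recombinase cuts. The last 120 bases of the V exon, read 5' to 3' on the minus strand from GENCODE M21 transcripts (GRCm38), are shown for the segments at the extremes of the results. Ighv9-3 (chr12:114140692-114140811) and Ighv1-26 (chr12:114788372-114788491) had the highest shares. Ighv5-2 (chr12:113578504-113578623) and Ighv1-85 (chr12:116000028-116000147) were the outermost members, with V pseudogenes beyond both. Ighv1-36 (chr12:114879888-114880007) had the smallest p between the groups, and Ighv1-24 (chr12:114772928-114773047) was among the least counted V genes. Capitals mark the motif TANTNNTGT, usually a tyrosine codon, then a codon that begins with T and a cysteine codon.
Ighv9-3: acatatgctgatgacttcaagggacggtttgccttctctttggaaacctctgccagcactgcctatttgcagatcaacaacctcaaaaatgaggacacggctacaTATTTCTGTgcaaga
Ighv1-26: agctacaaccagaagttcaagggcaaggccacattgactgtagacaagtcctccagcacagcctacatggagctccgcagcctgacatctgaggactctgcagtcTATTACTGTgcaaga
Ighv5-2: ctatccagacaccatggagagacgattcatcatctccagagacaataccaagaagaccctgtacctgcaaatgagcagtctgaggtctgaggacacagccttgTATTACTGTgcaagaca
Ighv1-85: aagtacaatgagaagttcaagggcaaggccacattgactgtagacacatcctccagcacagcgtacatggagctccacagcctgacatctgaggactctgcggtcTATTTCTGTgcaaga
Ighv1-36: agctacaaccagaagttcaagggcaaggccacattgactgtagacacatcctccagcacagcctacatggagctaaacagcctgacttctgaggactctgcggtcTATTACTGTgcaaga
Ighv1-24: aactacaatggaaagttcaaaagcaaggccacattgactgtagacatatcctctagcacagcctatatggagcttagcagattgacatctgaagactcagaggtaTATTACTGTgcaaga
Ighv9-3 was 562.2 kb from Ighv5-2, and all 6 of these segments held the motif. Of the members, 101 of 105 (96.2%) held it, starting in the last 30 bases of the exon on the sense strand; the other strand was not searched. Among V pseudogenes it was found in 41 of 70 (58.6%) and over all 185 Ighv exons in 80% of them. Ighv1-24, with the motif, had 2 counts in WT4 and 0 counts in the other 7 libraries, so a segment could hold these letters and hardly be counted.

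Members were well covered. Library totals ran from 43974037 to 57988772 counts and the members together took 52735 to 74133 of them, 0.0955% to 0.134% of a library. V pseudogenes added only 2.26% to 2.54% of the Ighv counts. The label was set against stage markers, because usage is read differently at each stage. Per length, Igkc, the kappa light chain constant region, stood at 5139 to 7396 FPKM (fragments per kilobase, scaled to library size) and Ighm, the mu heavy chain, at 6348 to 7897. Ms4a1 (CD20), a marker of later B cells, was at 96.3 to 136 FPKM. Genes of the pro-B stage were lower: Igll1 and Vpreb1, which encode the surrogate light chain, were at 17.9 to 95.2 and 25.7 to 126 FPKM, Dntt, which adds bases at V-D-J joins, at 7.05 to 51.8, and Kit at 0.0787 to 0.360. Igkc and Ighm were above these 4 early stage genes in every library, while Ms4a1 overlapped the range of Vpreb1. Pro-B cells are defined as cells before light chain joining, so the Igkc level goes against the label, and the cells are called labelled pro-B cells here. Il2ra was at 24.6 to 37.9 FPKM in the wild type and 25.3 to 42.7 in the libraries labelled knockout, and its log2 fold change was -0.09 ± 0.19 (SE). These are counts summed over all exons, so the value does not check the label unless the deletion removes most of the transcript, and the group is called the labelled knockout.

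The summed level of the 105 V segments differed between the groups by less than the spread of the libraries. It was 3211, 3551, 3427 and 2694 FPKM in WT libraries 1 to 4 and 3161, 3315, 3295 and 2833 in labelled knockout libraries 1 to 4. WT4 and KO4 were the lowest of their groups, and the knockout values lay inside the wild type range. The means were 3221 ± 378 and 3151 ± 223 (SD, n = 4), a difference of -2.16%. It ran from -7.22% without WT4 to 1.31% without WT2, and it was 1.13% without KO4, so its sign rested on single libraries. Relative to Ighm, with which a joined V segment shares its transcript, the summed V level was 0.459 ± 0.0233 in wild type and 0.426 ± 0.0342 in the labelled knockout. KO1, KO3 and KO4, at 0.400, 0.418 and 0.408, lay below the lowest wild type library at 0.424, and KO2 at 0.476 made the groups overlap. Ighm itself had a log2 fold change of 0.08 ± 0.08 (SE).

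**Figure D1:**
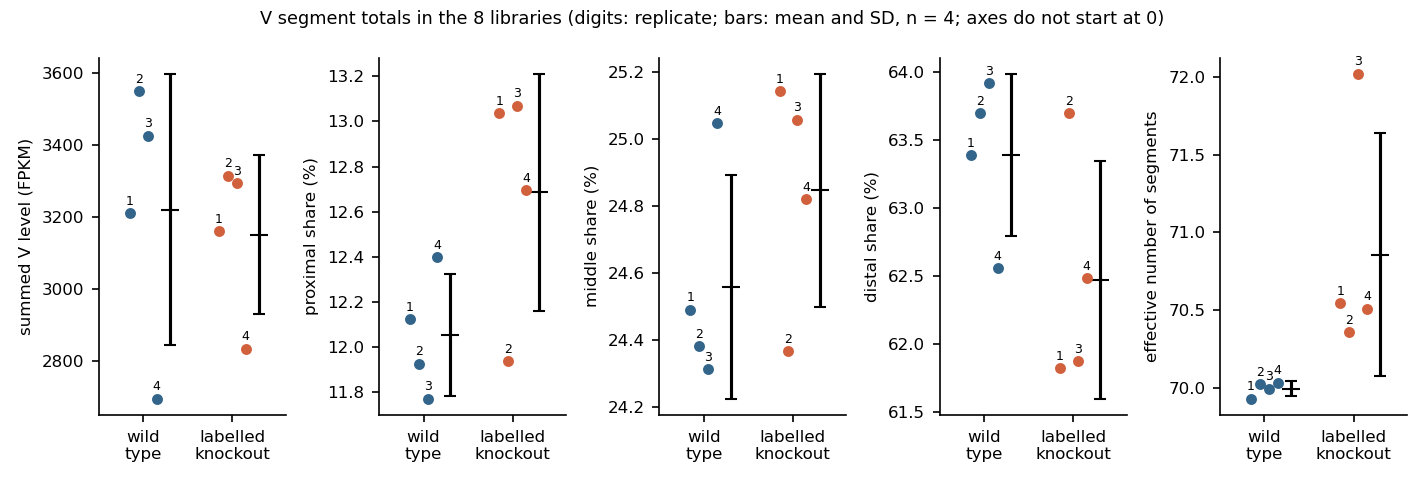
Summed V level, zone shares and effective number of V segments in each library (y axes, units on each panel; x axis, group). Points are libraries with their replicate number and bars are mean and SD (n = 4); the groups overlap in the first 4 panels and do not overlap in the effective number, where the wild type spans 69.9 to 70.0 and the labelled knockout 70.4 to 72.0.

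Usage is given from here on as a share, a segment's counts per kilobase of exon as a percentage of the sum over the 105 members in that library. Even use would give each segment 0.952%. The observed mean shares ran from 4.38% for Ighv9-3 to 0.0197% for Ighv6-4, a 223-fold range, with a median of 0.711%. At or above 1% stood 41 members, and 13 members were under 0.1% and added up to 0.730%. The 10 highest members took 28.7% of the V level and between 21 and 23 segments were enough for 50% of it.

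Ighv9-3 had the highest share in every library. Its share was 4.74, 4.46, 4.27 and 4.29% in the wild type and 4.46, 4.42, 4.05 and 4.34% in the labelled knockout. The groups overlapped, KO3 was lowest and WT1 highest, and the log2 fold change of its level was -0.07 ± 0.12 (SE). Ighv1-26 came next with 3.58 ± 0.0552% against 3.59 ± 0.230% (SD, n = 4), and its wild type libraries differed by little while KO1 was at 3.34% and KO4 at 3.85%. Ighv1-81, Ighv1-72 and Ighv1-64, all in the distal zone, followed at 3.13, 3.03 and 2.87%. The middle zone supplied Ighv3-6 at 2.75% and Ighv6-3 at 2.31%, and the distal zone Ighv8-8 at 2.27%, Ighv1-75 at 2.27% and Ighv1-55 at 2.16%. Of these 10 segments 7 were among the 10 highest in all 8 libraries, and none was proximal. The highest proximal member, Ighv5-17, was at 1.75%.

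**Figure D2:**
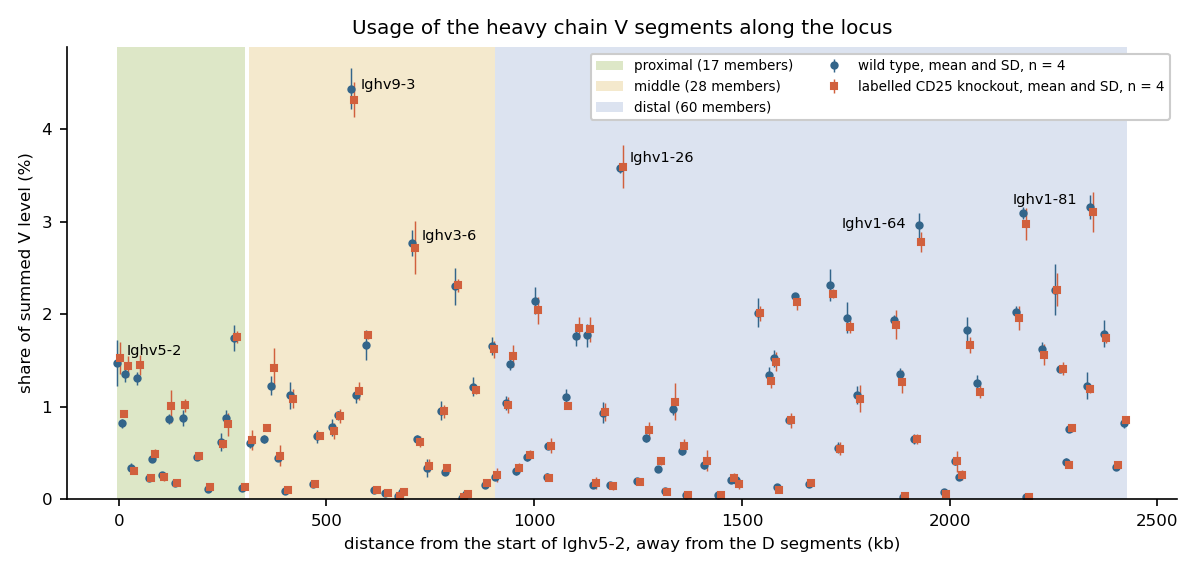
Share of the summed V level (y axis, %) of each of the 105 members against its distance from Ighv5-2 (x axis, kb); circles are wild type and squares labelled knockout, with mean and SD (n = 4). High and low segments alternate along the whole locus, Ighv9-3 at 4.38% stands highest, and the groups lie on each other at nearly every segment.

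Neighbouring segments differed widely at both ends of the locus. Ighv5-2 took 1.498% while Ighv2-2, 9.8 kb further on, took 0.869% and Ighv5-4, 18.9 kb away, 1.39%. At the far end Ighv1-82, Ighv1-84 and Ighv1-85 took 1.77, 0.359 and 0.841%. In the proximal zone the Ighv5 members were mostly above the Ighv2 members interleaved with them. Apart from Ighv2-2 no Ighv2 member was above the 0.464% of Ighv2-9-1, and apart from Ighv5-9 at 0.460% no Ighv5 member was below the 0.610% of Ighv5-15. Across the 105 members Spearman's rho between distance and mean share was 0.17, a description over segments that share libraries and mapping. The distal zone held 57.1% of the members and 62.9% of the V level, and the proximal zone 16.2% of the members and 12.4% of the level. Fragments that fit near copies were counted at each place, so segment, zone and family shares can hold a fragment more than once.

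Families differed in their level per segment. Ighv1 took 57.0% of the V level, which is 1.14% per member, with members from 0.0430 to 3.59%. Ighv9 had the highest mean per member of the families with several members, 1.67%, owing to Ighv9-3. Ighv10 was at 1.57%, Ighv5 at 1.09% and Ighv14 at 1.05% per member. Ighv2 was at 0.320% and Ighv8 at 0.456% per member. Lowest was Ighv11, with 2 members at 0.127% on average. For each of these families the 4 wild type and 4 labelled knockout libraries overlapped. Ighv12, a family of the single member Ighv12-3, did not overlap, as given with the segments that follow.

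Family Ighv8 shows how far close relatives could differ. Ighv8-8 and Ighv8-12 took 2.27 and 1.21%, and the mean shares of the other 7 members were under 0.2%. The exon ends of 5 of them are shown because the low members differ in the motif; capitals mark TANTNNTGT where it is present. They lie at chr12:115294062-115294181, chr12:115647945-115648064, chr12:115765333-115765452, chr12:115468332-115468451 and chr12:114462291-114462410, all on the minus strand.
Ighv8-8: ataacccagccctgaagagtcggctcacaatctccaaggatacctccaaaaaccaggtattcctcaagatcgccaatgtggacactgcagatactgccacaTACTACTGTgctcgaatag
Ighv8-12: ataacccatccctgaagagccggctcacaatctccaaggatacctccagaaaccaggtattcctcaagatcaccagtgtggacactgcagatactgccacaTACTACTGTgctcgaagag
Ighv8-13: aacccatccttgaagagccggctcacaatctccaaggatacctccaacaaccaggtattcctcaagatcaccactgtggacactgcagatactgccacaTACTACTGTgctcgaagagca
Ighv8-9: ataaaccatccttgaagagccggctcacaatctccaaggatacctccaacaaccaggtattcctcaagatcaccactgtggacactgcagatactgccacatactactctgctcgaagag
Ighv8-2: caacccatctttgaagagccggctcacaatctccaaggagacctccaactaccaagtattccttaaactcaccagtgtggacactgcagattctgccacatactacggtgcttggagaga
Ighv8-9 and Ighv8-2 lacked the motif and their shares were 0.0288 and 0.164%. In counts, Ighv8-9 had 11, 15, 21 and 14 in the wild type and 12, 12, 27 and 23 in the labelled knockout. Ighv8-13 held the motif, was 97.4% identical to Ighv8-9 over 303 bases, and had a share of 0.0201%. Its annotation has no start codon, and fragments that fit a near copy are counted at both places, so its counts are uncertain. Ighv8-6 also held the motif and had a mean share of 0.116%. Low use within the family was thus seen with and without the motif.

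The other 2 members without a match were Ighv6-3 (chr12:114391712-114391831), the seventh highest of all, and Ighv3-8 (chr12:114322327-114322446). Their exon ends show that the search missed them for different reasons.
Ighv6-3: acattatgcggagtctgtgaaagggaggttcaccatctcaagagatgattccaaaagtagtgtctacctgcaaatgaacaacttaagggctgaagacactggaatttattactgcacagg
Ighv3-8: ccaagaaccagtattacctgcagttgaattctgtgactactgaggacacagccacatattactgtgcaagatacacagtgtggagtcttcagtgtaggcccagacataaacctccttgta
Ighv6-3 ends in the same codons with the alternative cysteine codon, and Ighv3-8 has the motif further inside an annotated exon that runs on past it. The share of Ighv3-8 was 0.276, 0.248, 0.350 and 0.470% in the wild type and 0.386, 0.268, 0.432 and 0.352% in the labelled knockout, with overlapping groups. With the motif, shares ran from 0.0197 to 4.38% over 101 members, so its presence went with any level.

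V segments arose by duplication, and near copies limit what short reads can assign. Of the members 29 had a V exon at least 97% identical to that of another Ighv gene, and together they took 29.5% of the V level. Among the highest segments, Ighv1-26 was 97.4% identical to Ighv1-18 and Ighv1-72 99.0% identical to Ighv1-62-3, so their shares can include fragments of these copies. Ighv1-62-2 (chr12:115446409-115446528) and Ighv1-71 (chr12:115742205-115742324) are shown as the extreme case, 296 kb apart, with the motif in capitals.
Ighv1-62-2: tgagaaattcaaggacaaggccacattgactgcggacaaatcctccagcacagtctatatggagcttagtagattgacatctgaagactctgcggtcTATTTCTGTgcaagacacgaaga
Ighv1-71: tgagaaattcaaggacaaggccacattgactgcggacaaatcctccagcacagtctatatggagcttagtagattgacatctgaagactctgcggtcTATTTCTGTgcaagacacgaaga
Their V exons were identical over all 313 bases. Ighv1-62-2 had 1034, 1479, 1084 and 1144 counts in the wild type and 1227, 1270, 1128 and 1043 in the labelled knockout, and Ighv1-71 had 1026, 1455, 1077, 1145, 1178, 1261, 1112 and 1045 in the same order. The counts of the pair differed by at most 4.07% in any library. A fragment that mapped to several places was counted at each of them, so these are largely the same fragments entered at both places, and the shares of 1.91% and 1.99% cannot be assigned to either.

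Ighv1-15 (chr12:114657353-114657652) and Ighv1-23 (chr12:114764450-114764749) are the contrasting case of a near copy with different counts. Their last 300 bases differ at 5 positions, which are in capitals.
Ighv1-15: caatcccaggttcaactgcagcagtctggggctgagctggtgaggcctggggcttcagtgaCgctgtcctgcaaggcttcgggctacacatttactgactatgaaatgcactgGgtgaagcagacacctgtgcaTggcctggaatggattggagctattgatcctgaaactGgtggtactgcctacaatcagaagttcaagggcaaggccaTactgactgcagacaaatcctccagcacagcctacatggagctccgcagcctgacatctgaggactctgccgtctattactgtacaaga
Ighv1-23: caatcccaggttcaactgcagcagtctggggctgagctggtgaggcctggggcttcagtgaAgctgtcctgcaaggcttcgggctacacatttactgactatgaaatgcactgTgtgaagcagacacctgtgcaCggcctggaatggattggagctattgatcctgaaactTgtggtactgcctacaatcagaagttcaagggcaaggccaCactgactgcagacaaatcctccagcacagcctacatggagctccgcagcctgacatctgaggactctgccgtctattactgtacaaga
Ighv1-15 took 1.13, 1.08, 1.01 and 1.20% in the wild type and 1.01, 1.01, 0.9996 and 0.993% in the labelled knockout. Ighv1-23 took 0.167, 0.163, 0.180 and 0.0948% and 0.0818, 0.178, 0.153 and 0.134%. Ighv1-15 was higher in every library, 7.34-fold on average, although fragments that miss the differing bases count for both. WT4 and KO1 were the libraries in which Ighv1-23 was lowest.

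The order of the segments was nearly the same in every library. Spearman's rho between the shares of 2 libraries was between 0.986 and 0.995 over the 28 pairs, which share the same set of segments and gene lengths. The median coefficient of variation (CV) of a member's share over the 8 libraries was 9.63%, against 4.76% from counting error alone. Segments at 0.5% or more had a median CV of 7.38% and those under 0.1% one of 22.3%. Ighv1-55 had the lowest CV, 3.06%, with shares from 2.06 to 2.26%, and Ighv1-43 the highest, 42.4%, with 34, 37, 14 and 22 counts in the wild type and 30, 7, 31 and 20 in the labelled knockout.

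Some well covered segments spread far more than counting error. The variance of the share exceeded the counting variance by more than 5 times in 30 members. In Ighv4-1 it was 17.2 times larger, with 1.15, 1.20, 1.17 and 1.38% in the wild type and 1.70, 1.32, 1.45 and 1.18% in the labelled knockout. KO1 was highest and the groups overlapped. Ighv5-2, the member nearest to the D segments, came second at 15.1 times, with shares of 1.78, 1.43, 1.16 and 1.51% in the wild type and 1.65, 1.27, 1.597 and 1.58% in the labelled knockout.

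Further segments peaked in single libraries of the labelled knockout. Ighv5-12 was at 1.26% in KO3 and 0.832 to 0.980% in the other 7, and Ighv1-49 at 0.300% in KO3. Ighv1-47 was at 0.573% in KO1 and at most 0.426% elsewhere. Ighv1-4, the innermost distal segment, was at 0.370% in KO2 and at most 0.260% elsewhere, and Ighv1-67 at 0.330% in KO4. Over all members KO1 held the highest share for 19 and the lowest for 20 of 105, more than any other library in both counts.

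**Figure D3:**
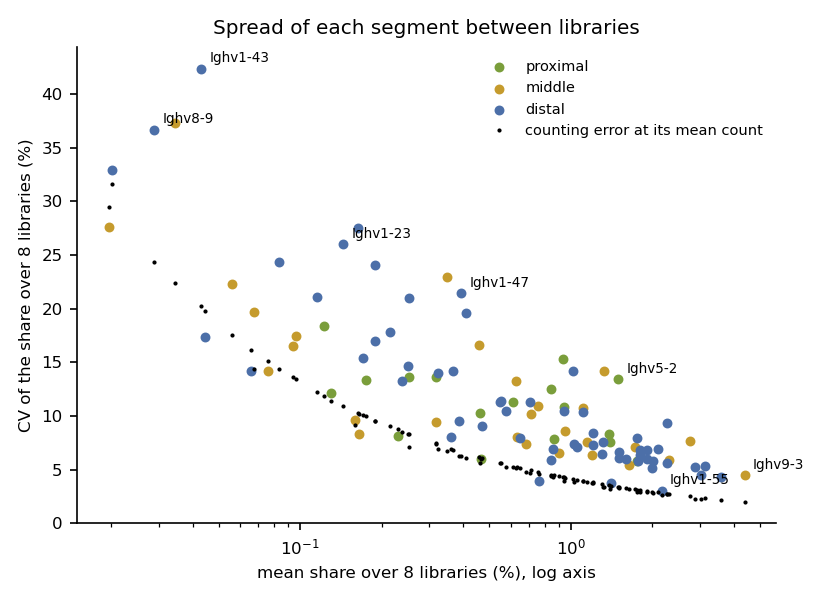
CV of each member's share over the 8 libraries (y axis, %) against its mean share (x axis, %, log scale), coloured by zone, with the counting error at the same count as small black points. Most members lie above the counting error, with a median CV of 9.63% against 4.76%, and the rarely used Ighv1-43 is highest at 42.4%.

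No member's level passed the test between the groups. In edgeR's quasi-likelihood test on all 18884 genes that passed the count filter, which all 105 members did, 0 members and 0% of all genes had a Benjamini-Hochberg adjusted p under 0.05. At an unadjusted p under 0.05 there were 0 of 105 members, against 12.6% of all tested genes (5.53% higher and 7.11% lower in the labelled knockout). DESeq2 called 4 genes of the whole table and none of them was a member. For levels, the groups overlapped in all 105 members, while they did not overlap in 2.62% of all genes in the higher and 4.17% in the lower direction. The smallest adjusted p of a member was 0.508, for Ighv1-36.

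The fold changes were small as well as uncalled. They ran from -0.39 to 0.32 on the log2 scale with a median of -0.03, beside 0.00 over all genes, and 42 members were above and 63 below 0 (60%, against 49.6% of all genes below 0). The median standard error was 0.17, against 0.24 over all tested genes and 0.16 over those whose mean reached 5 CPM. The 95% interval lay within a 2-fold change either way for 100 of 105 members, where 58.4% of all genes met this, and within 1.5-fold for 78 members, against 30.5%. Members are mostly well counted genes, which bears on these shares. By zone the median was 0.02 for proximal, -0.03 for middle and -0.06 for distal members, of which 19 were above and 41 below 0.

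**Figure D4:**
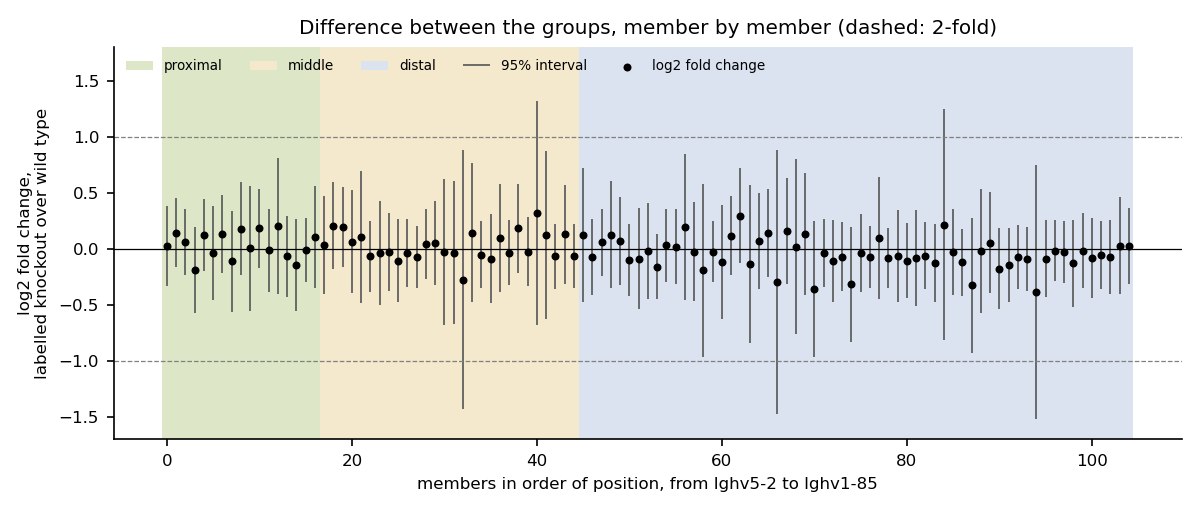
log2 fold change of the level of each member, labelled knockout over wild type (y axis), in order of position (x axis). The 95% intervals were computed from edgeR's log2 fold change and F statistic. The intervals of all members include 0, the values run from -0.39 to 0.32, and the widest intervals belong to rarely counted segments such as Ighv6-4 and Ighv8-13.

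Among the segments with the smallest unadjusted p, Ighv1-36 came first in the higher direction. Its share was 0.306, 0.351, 0.325 and 0.322% in the wild type and 0.444, 0.438, 0.385 and 0.368% in the labelled knockout. KO1 and KO2 were highest and the groups did not overlap in share. In level, per library 9.83, 12.5, 11.1 and 8.68 FPKM against 14.04, 14.5, 12.7 and 10.4, they did overlap, and edgeR gave a log2 fold change of 0.29 ± 0.19 (SE, adjusted p = 0.508). Next in this direction were Ighv4-1 at 0.19, Ighv14-1 at 0.21, Ighv5-9-1 at 0.18 and Ighv2-2 at 0.14, with adjusted p between 0.608 and 0.654.

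In the lower direction the order was Ighv8-6, Ighv8-5, Ighv1-15, Ighv8-11 and Ighv1-69, all distal, and 3 of them Ighv8 segments. Ighv8-6 took 0.150, 0.107, 0.104 and 0.151% in the wild type and 0.106, 0.0788, 0.121 and 0.108% in the labelled knockout. The groups overlapped, and its log2 fold change was -0.32 ± 0.23 (SE, edgeR adjusted p = 0.552). Ighv8-5 was at 0.210, 0.179, 0.247 and 0.206% against 0.126, 0.242, 0.151 and 0.146%, with KO2 inside the wild type range. Its log2 fold change was -0.36 ± 0.27, and without KO2 it was -0.59 with an edgeR unadjusted p under 0.05. It was the only member to reach that in any fit that left out 1 library. In the fit without KO2, 15.1% of all 19333 tested genes reached it. Ighv8-11 and Ighv1-69 had -0.33 and -0.18, and over the whole Ighv8 family the share was 4.23 ± 0.175% against 3.98 ± 0.111% (SD, n = 4), with overlap.

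**Figure D5:**
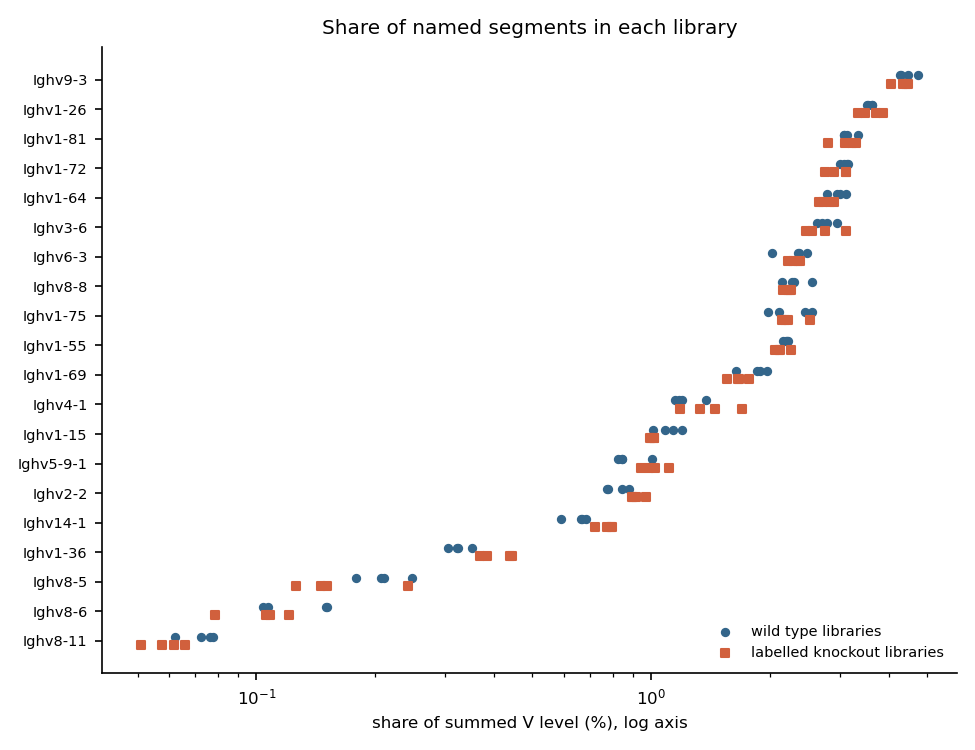
Share of the summed V level (x axis, %, log scale) in each library for the 10 highest segments and the 10 named for their unadjusted p, 5 in each direction; circles are wild type and squares labelled knockout libraries. The groups overlap for the 10 highest segments, whose mean shares lie between 2.16 and 4.38%, and are apart for Ighv1-36, Ighv14-1 and Ighv2-2.

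As shares, 4 of 105 members (3.81%) did not overlap in the higher direction and 0 in the lower. With the CPM of every tested gene divided by the summed V CPM, not per kilobase, 1.23% of all genes did so higher and 1.58% lower. That sum is made of the members themselves, so these percentages are not a like background for them. For levels not divided by it, 2.62% of all genes did so higher and 4.17% lower, and 0 members in either direction. The 4 members were Ighv2-2, Ighv14-1, Ighv12-3 and Ighv1-36. Ighv14-1 was at 0.684, 0.665, 0.666 and 0.592% in the wild type and 0.797, 0.789, 0.773 and 0.721% in the labelled knockout. Ighv12-3 was at 0.308, 0.267, 0.306 and 0.296% and 0.342, 0.337, 0.363 and 0.317%. Ighv2-2 was at 0.876, 0.779, 0.771 and 0.843% and 0.971, 0.900, 0.893 and 0.916%, so its highest wild type and lowest knockout libraries nearly met. Ighv2-2 is proximal, Ighv14-1 and Ighv12-3 are middle and Ighv1-36 is distal. Ighv2-2 and Ighv14-1 have near copies at least 97% identical. Group mean shares of all 105 members were within 1.5-fold of each other, and their rank order had a Spearman's rho of 0.997.

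By zone, group mean shares differed by less than 1 percentage point. The proximal share was 12.1, 11.9, 11.8 and 12.4% in the wild type and 13.04, 11.9, 13.1 and 12.7% in the labelled knockout. KO1, KO3 and KO4 lay above the wild type range and KO2 inside it. The means were 12.1 ± 0.271% and 12.7 ± 0.527% (SD, n = 4). The distal share was 63.4, 63.7, 63.9 and 62.6% against 61.8, 63.7, 61.9 and 62.5%, with means of 63.4 ± 0.595% and 62.5 ± 0.872%. The groups overlapped, and the difference of -0.92 points became -1.33 without KO2, when they no longer did. The middle share was 24.6 ± 0.333% and 24.8 ± 0.348%. Shares of a whole sum to 100%, so these 3 differences are not separate results. Across members the Spearman's rho between distance and the log2 share ratio was -0.33, over segments that share the same 8 libraries.

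Evenness of use was higher in each labelled knockout library than in any wild type library. The effective number of segments, which is the number of equally used segments with the same Shannon entropy, was 69.9, 70.0, 70.0 and 70.0 in the wild type and 70.5, 70.4, 72.0 and 70.5 in the labelled knockout. KO3 stood apart. The difference was 0.862 segments, and 0.475 without KO3. With the members that have near copies left out it was 0.665 and the groups overlapped. The 10 highest segments of each library took 29.2 ± 0.222% in the wild type and 28.5 ± 0.404% in the labelled knockout, also without overlap. No test was made of these sums, since the members were chosen with results known.

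The libraries with the highest proximal shares also stood apart in other transcripts. Summed CPM of the recombinase and end processing list was 8097 to 9166 in the wild type and 5684, 7672, 4879 and 7652 in KO1 to KO4, lowest in KO1 and KO3. Hmgb1 and Hmgb2, with wild type means of 3477 and 3281 CPM, made up most of this sum. Rag1 was at 205, 220, 347 and 255 CPM in KO1 to KO4, highest in KO3 and there inside the wild type range of 208 to 389. Erythroid markers summed to 2966 to 8729 CPM in the wild type and to 316, 1849, 921 and 2333 in the labelled knockout. Natural killer markers summed to 33.7 to 48.0 and to 13.1, 30.2, 9.26 and 30.9 CPM. KO1 and KO3, the lowest in all 3 sums, were the libraries with proximal shares of 13.04 and 13.07%. They were also lowest in the neutrophil sum, at 176 and 120 CPM, and the monocyte and macrophage sum, at 32.4 and 24.2 CPM. The wild type libraries did not repeat this pattern. WT4 had their highest proximal share, 12.4%, with their highest erythroid sum, 8729 CPM. Its recombinase list sum was 8844 CPM, inside their range, and its natural killer sum of 33.7 CPM was their lowest. The part of these transcripts in the zone shares was not tested.

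Genes that act on V joining were read from lists, of which 0 genes passed the adjusted test. Of 16 genes of V region accessibility and locus contraction 13 were above 0 and 3 below, with a median log2 fold change of 0.15, and 4 higher and 1 lower at an unadjusted p under 0.05, which 5.53% and 7.11% of all tested genes met in these directions. Smc1a, a cohesin subunit, was at 277 ± 14.1 CPM in the wild type and 219 ± 27.4 in the labelled knockout, with a log2 fold change of -0.34 ± 0.11 (SE, edgeR adjusted p = 0.391). Ebf1, a transcription factor of B lineage commitment, was at 575 ± 29.96 and 761 ± 144 CPM with 0.40 ± 0.13 (SE) and the same adjusted p of 0.391 in edgeR. Of 12 genes of the recombinase and end processing 1 was above and 11 were below 0, median -0.18, with 3 lower at an unadjusted p under 0.05, against the same 7.11% of all genes. Hmgb1, a DNA bending protein that assists RAG, was at 3477 ± 211 and 2579 ± 604 CPM, and Xrcc5 (Ku80), of end joining, at 26.0 ± 1.90 and 20.9 ± 2.05. Rag1 and Rag2, the recombinase itself, had log2 fold changes of -0.33 ± 0.22 and -0.18 ± 0.11 (SE).

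B cell stage lists had values as follows. Of 12 pro-B markers 2 were above and 10 below 0, median -0.44, with 4 lower at an unadjusted p under 0.05 (7.11% of all tested genes). Erg, an early haematopoietic factor, was at 6.73 ± 2.32 and 4.36 ± 0.784 CPM, and Igll1 at 163 ± 55.4 and 86.5 ± 51.3. Of 12 later B cell markers 6 were on each side, median -0.02. At an unadjusted p under 0.05, 2 were higher and 1 lower (5.53% and 7.11% of all tested genes). Tnfrsf13b (TACI) was at 204 ± 80.1 and 315 ± 20.6 CPM and Cd37 at 900 ± 42.6 and 1123 ± 219, while Ms4a1 was at 770 ± 87.4 and 657 ± 44.2 CPM. None passed the adjusted test.

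Plasma cells carry very high levels of joined V transcripts, so their markers were set beside the V levels. Of 11 tested plasma cell genes 5 were above and 6 below 0, median -0.09. At an unadjusted p under 0.05, 2 were lower (7.11% of all tested genes). The list summed to 934 to 991 CPM in the wild type and 880 to 1007 in the labelled knockout. Mzb1 and Slamf7 had the smallest unadjusted p of the list in edgeR. Their levels were 18.7 ± 2.25 against 13.5 ± 1.12 and 378 ± 21.4 against 324 ± 17.2 CPM, wild type first. Jchain, which links secreted IgM and IgA, was at 2.60, 7.21, 0.13 and 1.11 CPM in the wild type and 0.97, 5.28, 0.00 and 3.21 in the labelled knockout. Sdc1 (CD138) was at 34.5, 21.3, 36.6 and 89.1 CPM and 106, 49.9, 60.6 and 67.7. Igha and Ighg2b, constant regions used after class switching, reached at most 23.2 and 20.9 CPM, while Ighm was at 11972 CPM or more in every library. Igha and Jchain were highest in WT2 and KO2, the libraries with the highest summed V levels of their groups, 3551 and 3315 FPKM. Sdc1 and Xbp1, a plasma cell transcription factor, were lowest in these libraries of their groups, Xbp1 at 13.4 and 32.7 CPM, and Ighg2b was highest in WT1 and KO1. The plasma cell genes thus did not follow the V level together, and their part in it was not tested.

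Markers of other lineages had medians of -0.83 for natural killer (1 of 10 above 0), -1.59 for erythroid (1 of 9), -0.46 for neutrophil (0 of 10), -0.41 for monocyte and macrophage (1 of 9), -0.06 for dendritic (4 of 9) and -0.02 for T cell genes (3 of 7), with 0 genes past the adjusted test. At an unadjusted p under 0.05, 5 erythroid, 2 natural killer, 1 monocyte and 1 dendritic cell gene were lower and 1 dendritic cell gene was higher, and no neutrophil or T cell gene met it. Of all tested genes 7.11% were lower and 5.53% higher at this p. The median of the V members was -0.03, and the part of these other cells in the V levels was not tested.

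The segments at the edge of the counting rule were few. Just inside lay Ighv6-4 with 8, 14, 10 and 8 counts in the wild type and 9, 13, 12 and 18 in the labelled knockout, and Ighv8-13 with 6, 15, 12, 12, 5, 7, 13 and 10. Just outside lay Ighv1-62-1 with 9, 7, 11, 2, 5, 8, 2 and 1 counts, and Ighv2-7 with 4, 3, 1, 1, 7, 4, 1 and 8. Together the 8 V genes below the threshold, which also include Ighv5-12-4, Ighv7-2, Ighv16-1, Ighv6-7, Ighv1-16 and Ighv1-24, had 9 to 31 counts per library. A count of 0 in a library allows up to 3 counts, 0.00405 to 0.00569% of the member counts, by counting error alone.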

How the data were processed

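RNA of 8 samples was isolated with Trizol and sequenced from SMARTER mRNA-Seq libraries, per the labels' protocols. The authors deposited raw counts per gene for 55487 genes, with featureCounts 2.0.1, which counted read pairs over GENCODE M25 exons and multi-mapping pairs at every place, per the file headers. The headers record no strand setting, and antisense or overlapping transcripts cannot be separated. STAR 2.7.7a, GATK 4.1.9.0 and mm10 are named, with no role given, per the submitters' processing notes. The deposited table also holds summed exon lengths (unit: other), used only to scale levels per kilobase.

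Everything else was computed here. Names, classes and V exon sequences came from GENCODE M21 (GRCm38, the same build), in which 55141 identifiers were found and 346 were not. Counts were filtered with filterByExpr, scaled with TMM and tested with edgeR 4.0.16 (quasi-likelihood, robust, two-sided, genotype as the only term) in R 4.3.3, adjusted over all 18884 genes, and members were read from that fit. The edgeR test reports no standard error. The SE was computed here as the size of the log2 fold change over the square root of the F statistic. The 95% intervals were taken from it with a t quantile. CPM and FPKM use TMM-scaled library sizes, and exon identity was aligned with edlib 1.3.9.post1. Libraries of a group differed beyond sampling noise in 12 pairs. The chi-square per degree of freedom was 29.5 or more over all genes and 3.08 to 6.35 over members. Each library counted as its own sample, which this excess cannot show, since separate preparation of the same RNA can also give it. The test was checked on simulated data.

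Members and lists were chosen with earlier results of these data known. Named are the 10 members with the highest share, the 3 at each end of the locus, the 5 with the smallest p in each direction, the 5 with the largest peak in a single library among those with a share of at least 0.2%, and the 2 nearest the threshold on each side; of the joining, stage and plasma cell lists the 2 genes with the smallest p, and all switched constant regions above 4 CPM. Segments printed for their sequence, and Ighv1-43, Ighv3-8, Ighv5-17, Ighv12-3, Rag1, Rag2, Hmgb2, Ms4a1, Jchain, Sdc1 and Xbp1, were picked after their values were seen. Alternatives were other scalings and count filters, receptor segments left out of library sizes, DESeq2 1.42.0, limma-voom (limma 3.58.1), a replicate block, near copies left out, raw counts not divided by length, and each library left out in turn.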

Additional observations from a re-analysis of the deposited data

Results flagged for a closer look

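In 78 groups of 4 libraries examined, 4 had a library whose gap to the nearest other exceeded Dixon's 95% limit for the range of its group, and chance alone gives about 1 in 20. The share of Ighv5-9-1 in WT1 was 1.01%, with the other wild type libraries at 0.821 to 0.843%. For Ighv5-12, also proximal, WT2 was at 0.940% and the others at 0.832 to 0.848%. The share of Ighv8-13 in WT1 was 0.0138%, below the 0.0246 to 0.0264% of the others, and rested on 6 counts. The effective number of segments in KO3 was 72.0, with the other labelled knockout libraries at 70.4 to 70.5.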

How the results depend on the processing

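No alternative called a member at an adjusted p under 0.05, including the fit without WT4, in which 363 other genes of 19506 tested were called. The count at an unadjusted p under 0.05 was 0 in each fit except the one without KO2, where it was 1 (Ighv8-5), so leaving out 1 library gave 0 to 1. In the fit without KO2, 15.1% of all tested genes met this p. The median log2 fold change of members ran from -0.11 to 0.06 when 1 library was left out. Upper quartile factors moved the median of all genes to -0.09 and that of the members to -0.13. Replicate numbers did not pair the libraries (same-number correlations of deviations from -0.03 to 0.64, and 3 of 8 libraries correlated best with their own number). With the replicate block 0 members were called, their median was -0.02, and 3057 genes of the table had an unadjusted p under 0.05 against 2388. Leaving out 1 library, the summed V level differed by -7.22 to 1.31%, the distal share by -1.33 to -0.70 points, the proximal share by 0.50 to 0.88 points and the effective number by 0.475 to 1.03. Of 510 refitted log2 fold changes of named members, 469 kept their sign and 41, in 16 members, changed it, with sizes up to 0.08; the cause was not tested. Without a count filter Ighv1-26, Ighv6-3 and Ighv1-75 became 0.0133, 0.0112 and 0.0193. Under upper quartile factors Ighv5-2, Ighv5-4, Ighv1-84, Ighv1-85 and Ighv1-67 became -0.0758, -0.0388, -0.0726, -0.0801 and -0.0497. Under limma-voom Ighv5-4, Ighv1-84, Ighv1-4 and Ighv1-49 became -0.0466, -0.0599, -0.0287 and -0.0612. Leaving out 1 library gave -0.162 to 0.013 for Ighv9-3, -0.107 to 0.0649 for Ighv1-26, -0.146 to 0.0559 for Ighv1-81, -0.18 to 0.00276 for Ighv1-72, -0.15 to 0.0385 for Ighv3-6 and -0.0976 to 0.0698 for Ighv6-3. The same fits gave -0.0916 to 0.0463 for Ighv1-75, -0.157 to 0.00902 for Ighv1-55, -0.0459 to 0.128 for Ighv5-2, -0.00735 to 0.126 for Ighv5-4 and -0.0589 to 0.146 for Ighv1-84. For the others they gave -0.0501 to 0.158 for Ighv1-85, -0.0546 to 0.300 for Ighv1-47, -0.0742 to 0.252 for Ighv1-4, -0.0676 to 0.281 for Ighv1-49 and -0.0506 to 0.192 for Ighv1-67. Depth limits the 13 members under a share of 0.1%, whose counts are low.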
